A study of Mus musculus with 16 samples.

Results

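The nuclear genes of oxidative phosphorylation were taken as all protein-coding genes of the mm10 RefSeq annotation outside the mitochondrial genome whose symbol starts with Nduf, Uqcr, Atp5, Cox4, Cox5, Cox6, Cox7 or Cox8, together with Sdha, Sdhb, Sdhc and Sdhd. The rule gave 96 of 21631 protein-coding genes. A peak of the count table was counted for a gene if its middle lay in the gene span or within 1 kb of it, and 86 of the 96 genes had such a peak, against 14402 of all 21631. The 86 genes held 186 of the 82188 peaks of the table, all of the same width. The 10 remaining genes, Ndufs3, Ndufa7, Ndufb4b, Ndufb4c, Uqcrc1, Cox6a2, Cox7b2, Cox8b, Cox8c and Atp5a1, were not analysed here. Because the symbol rule is broad, the 86 genes include 8 Ndufaf assembly factors, which build complex I without being part of it.

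Chromatin accessibility had been measured by Omni-ATAC, an assay that tags open DNA with a transposase, in bulk cells from the spleens of C57BL/6 mice aged 8 to 10 weeks. The 16 libraries form 4 groups of 4: CB and CC from Smarca4+/+ mice (WT), and CB and CC from Smarca4+/- mice (HET). Smarca4 is the gene of BRG1, the motor subunit of BAF remodelling complexes, which move nucleosomes, and the design compares germinal center B cells between these genotypes. The labels give CB and CC as abbreviations only, taken here to mean centroblasts and centrocytes. The labels name no Cre driver, immunization or sort gate. They do not say that replicates came from separate animals, so the tests see the spread among these libraries alone, which may be technical.

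Oxidative phosphorylation is the route by which mitochondria turn NADH and succinate into ATP. Complexes I and II pass electrons to ubiquinone, complex III passes them to cytochrome c, complex IV reduces oxygen, and complex V uses the resulting proton gradient to make ATP. Most subunits are encoded in the nucleus by housekeeping genes, and the promoters of these genes are known targets of NRF1, GABPA and YY1. In the germinal center, centroblasts of the dark zone divide and mutate their antibody genes, and centrocytes of the light zone are selected by antigen and T cell help.

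Promoters of 78 of the 96 genes stood in the RefSeq table of GRCm38.p6 (mm10), each with 250 bases before and 50 bases from the annotated start. Motifs were searched on both strands, and a match is a description of the letters and not of a bound site. The NRF1 motif, GCGCA and GCGC with any base between them, occurred in 19 of the 78 genes (24.4%) and in 7.25% of all genes of the table. CCGGAAG, the ETS motif that GABPA recognises, also occurred in 19 (24.4%), against 13.1% of all genes. AANATGGCG, the YY1 motif, occurred in 11 (14.1%), against 3.67%. GGGCGG of SP and KLF factors was found in 44.9% of the 78 genes and 49.8% of all genes, and CCAAT of NF-Y in 43.6% and 42.7%. The E-box CACGTG was found in 7.69% of the 78 genes and 9.02% of all genes, TGACGTCA (CRE) in 5.13% and 2.58%, and TATAAA in 10.3% and 14.9%. Matches to different motifs were counted separately even where they overlap. The genes of the table include genes without a peak. Among oxidative phosphorylation genes with a peak middle within 250 bp of the start, 18 held the NRF1 motif and 47 did not (all genes 1044 and 7425). For ETS it was 17 and 48 (1821 and 6648), for YY1 7 and 58 (515 and 7954). For GGGCGG it was 28 and 37 (6088 and 2381). Here the ETS shares lay closer together, and GGGCGG was rarer in oxidative phosphorylation genes than in all genes.

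**Figure D1:**
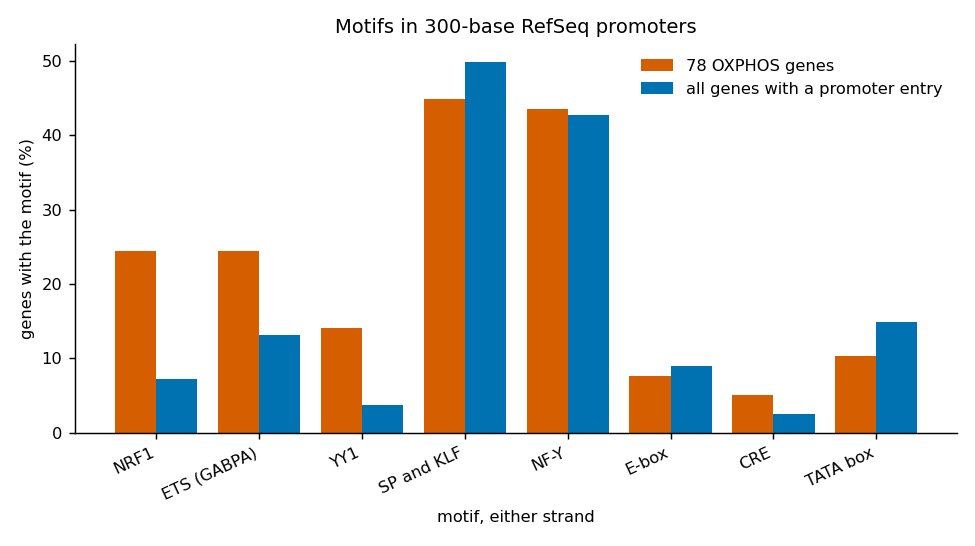
Share of genes (percent, vertical axis) whose 300-base RefSeq promoter holds each of 8 motifs on either strand, for the 78 oxidative phosphorylation genes and for all genes of the table. The NRF1 bar stands at 24.4% against 7.25%, and the YY1 bar at 14.1% against 3.67%. Both sets include genes without a peak.

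6 promoters are printed because their genes carry the results below. Summed over their peaks, 4 of the genes rose from CB to CC, 1 (Sdhb) fell, and 1 was lower in HET than in WT CC. No Sdhb peak had its middle within 250 bp of the start, and the largest fall of Sdhb was at a peak 1595 bp from it. Each run is written 5′ to 3′ on the strand of its gene, and capitals mark matches to the NRF1, ETS or YY1 motif on either strand. Ndufa5 (chr6:24527641-24527940, minus strand), the alternative start nearest to its NRF1 match, Ndufb4 (chr16:37654319-37654618, minus), Ndufs8 (chr19:3912725-3913024, minus), Atp5j (chr16:84834927-84835226, minus), Sdhb (chr4:140961021-140961320, plus) and Atp5h (chr11:115419870-115420169, minus) read as follows.
Ndufa5: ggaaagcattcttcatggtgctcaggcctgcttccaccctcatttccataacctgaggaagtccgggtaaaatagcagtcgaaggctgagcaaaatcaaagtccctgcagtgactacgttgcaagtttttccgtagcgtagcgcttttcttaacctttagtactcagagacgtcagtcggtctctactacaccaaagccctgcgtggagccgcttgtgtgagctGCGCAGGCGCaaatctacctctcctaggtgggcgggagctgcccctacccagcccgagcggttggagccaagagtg
Ndufb4: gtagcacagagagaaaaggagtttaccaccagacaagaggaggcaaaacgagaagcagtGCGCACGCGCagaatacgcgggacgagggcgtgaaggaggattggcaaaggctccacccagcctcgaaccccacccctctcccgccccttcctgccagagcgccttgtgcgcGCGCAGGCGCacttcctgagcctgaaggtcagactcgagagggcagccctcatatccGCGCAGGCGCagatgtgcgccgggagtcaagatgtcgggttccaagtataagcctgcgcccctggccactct
Ndufs8: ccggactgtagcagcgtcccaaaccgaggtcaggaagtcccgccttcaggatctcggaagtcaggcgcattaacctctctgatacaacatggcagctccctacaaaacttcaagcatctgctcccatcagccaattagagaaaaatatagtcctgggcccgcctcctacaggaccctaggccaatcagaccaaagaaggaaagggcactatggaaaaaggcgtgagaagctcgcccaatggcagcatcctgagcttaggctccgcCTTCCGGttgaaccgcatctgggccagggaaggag
Atp5j: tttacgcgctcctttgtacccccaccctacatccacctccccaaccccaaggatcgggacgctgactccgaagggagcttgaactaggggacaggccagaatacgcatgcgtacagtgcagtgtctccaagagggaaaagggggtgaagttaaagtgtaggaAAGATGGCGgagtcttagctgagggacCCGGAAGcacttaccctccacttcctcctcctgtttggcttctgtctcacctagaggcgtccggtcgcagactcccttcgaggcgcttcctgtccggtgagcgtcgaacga
Sdhb: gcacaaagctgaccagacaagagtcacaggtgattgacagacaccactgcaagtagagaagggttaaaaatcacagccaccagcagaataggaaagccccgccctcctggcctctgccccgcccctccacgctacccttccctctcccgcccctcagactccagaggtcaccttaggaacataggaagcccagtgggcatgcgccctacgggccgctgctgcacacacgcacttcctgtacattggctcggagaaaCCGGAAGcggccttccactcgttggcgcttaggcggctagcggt
Atp5h: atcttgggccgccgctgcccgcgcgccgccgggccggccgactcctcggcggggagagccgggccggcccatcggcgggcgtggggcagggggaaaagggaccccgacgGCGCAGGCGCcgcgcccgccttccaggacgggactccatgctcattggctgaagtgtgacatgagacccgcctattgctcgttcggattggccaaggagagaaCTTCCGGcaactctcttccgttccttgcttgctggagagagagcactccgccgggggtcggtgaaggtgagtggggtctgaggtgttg
Ndufb4 holds 3 NRF1 matches, at bases 60 to 69, 172 to 181 and 229 to 238 of its run. Atp5j holds a YY1 match at bases 163 to 171 and an ETS match at bases 190 to 196 of the run printed. Its alternative promoter (chr16:84835576-84835875), not printed, holds no NRF1, ETS or YY1 match. In Ndufs8 the ETS match lies at bases 266 to 272 and in Sdhb at bases 257 to 263, in both cases just past the annotated start. Atp5h holds an NRF1 match at bases 110 to 119 and an ETS match at bases 213 to 219.

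Depth differed between the cell types. CB libraries held 31696941 to 51011923 counts. CC libraries held fewer, 3494356 to 3750936 for WT and 5310327 to 7474760 for HET. The median count of an oxidative phosphorylation peak near a gene start was 770 to 1295 in CB libraries and 84 to 194 in CC libraries, and 1 of the 186 peaks had no count in 1 library (WT CC replicate 1). Values below are CPM, the count scaled to the TMM-adjusted library total (a normalisation by trimmed means), as mean ± SD over 4 libraries, and a gene's value is the sum over its peaks. Summed over the 9 measured B cell identity markers the level was 1324 to 1420 CPM in WT CB and 1123 to 1237 in WT CC, with 1 marker higher and 3 lower. For 12 germinal center markers it was 1357 to 1392 and 928.5 to 1011, and 9 of the 12 fell and 1 rose from CB to CC in WT. 6 of 10 dark zone genes fell and 2 rose, while 7 of 10 measured light zone genes rose and 2 fell, among them the light zone marker Cd86, which fell by 0.81 on the log2 scale. The 15 measured T cell markers summed to 369.1 to 398.5 CPM over all CB libraries, against 632.9 to 710.6 (WT) and 516.5 to 616.4 (HET) over CC libraries, and 13 of them were higher in CC than CB in each genotype. NK cell markers summed to 53.05 to 58.01 CPM in WT CB and 86.85 to 97.14 in WT CC (6 of 7 higher), and myeloid markers to 115.6 to 132.9 and 189.1 to 212.6 (6 of 9 higher, 2 lower). No marker was at 0 in a whole group, and the part of these cells in the CC values below was not tested. Smarca4 itself had 160.2 ± 5.99 CPM in WT CB, 150.1 ± 2.63 in HET CB, 142.2 ± 12.1 in WT CC and 130.4 ± 7.46 in HET CC. Neither difference between genotypes was called (adjusted p = 0.514 in CB and 0.198 in CC), and accessibility does not check the allele.

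Of the 186 peaks, 139 (74.7%) had their middle within 1 kb of a gene start, against 22.5% of all 82188 peaks. The rule takes only peaks in or beside genes, while the 82188 include peaks far from any gene. Among peaks in the window of any gene, 10151 lay within 250 bp of a start, 8374 up to 1000 bp away and 36524 further. The 186 peaks split into 76, 63 and 47. Of the 86 genes, 85 had a peak within 1 kb of a start. Cox4i2, the lung and hypoxia isoform of the cytochrome c oxidase subunit Cox4i1, had its single peak elsewhere. Single-peak genes numbered 29, and the highest number was 10, at the assembly factor Ndufaf2. The windows of neighbouring genes overlapped often: 69 of the 186 peaks, 65 of them near a start, also lay in the window of another gene. The 76 peaks that covered a start (75 genes) had a median of 34.26 CPM in WT CB, from 11.04 to 69.54, and 51 of the 76 lay above the median of 28.17 CPM over all 10151 such peaks. These levels compare across genes because all peaks have the same length.

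Accessibility of the oxidative phosphorylation genes did not move in 1 direction from CB to CC. In WT, 27 of the 86 genes were higher in CC and 20 were lower by edgeR's quasi-likelihood test at an adjusted p below 0.05, and 39 were not called. Over all 14402 genes, 62.8% were called, 37.1% higher and 25.7% lower, so the 54.7% called among the 86 genes is near that background. The median log2 fold change was 0.025 for the 86 genes and 0.062 for all genes. In HET, 21 genes were higher and 24 lower, 52.3% in all against 61.7% of all genes (33.1% higher, 28.6% lower), and the medians were -0.065 and 0.02. These shares of all genes in WT and HET are also the background for the counts per complex below. Higher in both genotypes were 20 genes and lower in both 16, none was called in opposite directions, and 30 were called in neither. The 4 CC values lay wholly above or wholly below the 4 CB values at 42 genes in WT and at 44 in HET, while 53.0% and 55.7% of all 14402 genes were separated in this way. The split in WT turned with the scaling: with TMM factors from peaks near starts 22 were higher and 29 lower, against 31.7% and 31.5% of all genes, and the median of the 86 genes was -0.043. Since the cells were measured in bulk, a smaller share of cells with an open site and less opening per cell cannot be told apart.

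**Figure D2:**
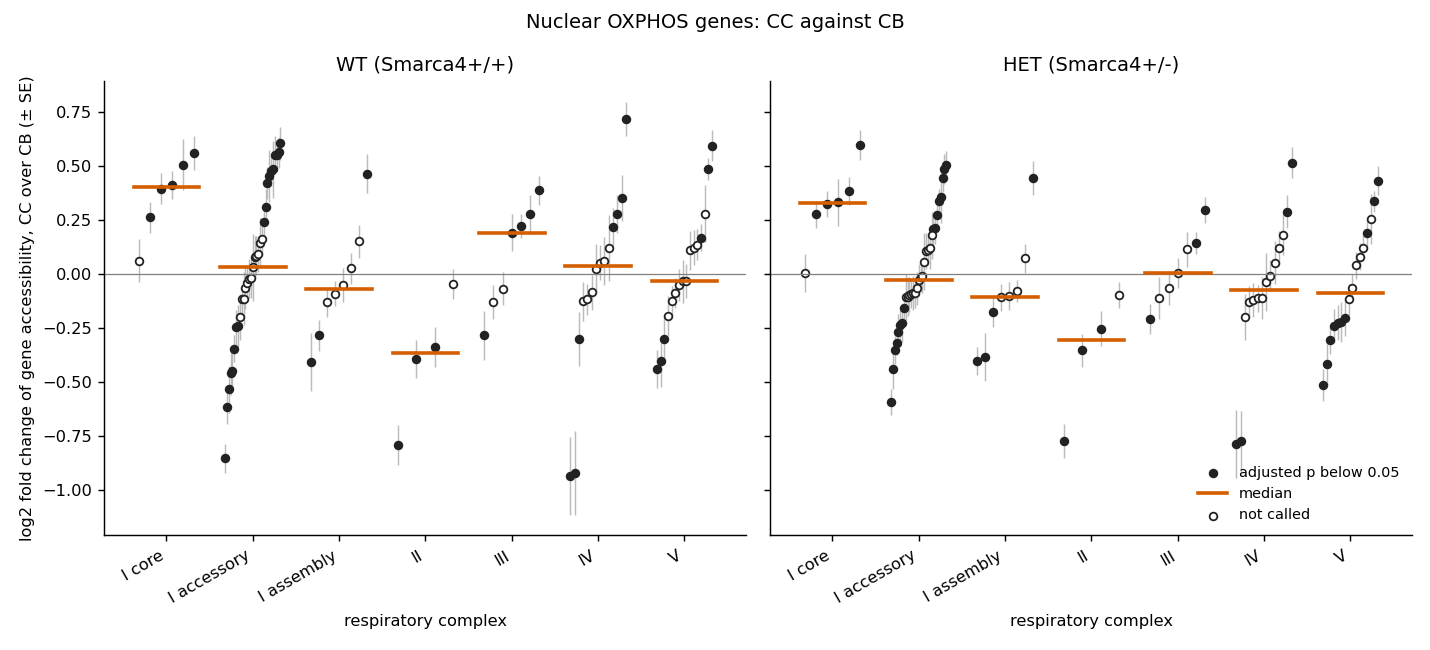
Log2 fold change of gene accessibility from CB to CC (vertical axis, ± SE of the fit) for the 86 genes, grouped by complex, in WT (left) and HET (right). Filled points passed an adjusted p of 0.05, and orange bars are medians. Complex I core genes lie highest (0.403 and 0.327) and complex II lowest (-0.366 and -0.304). Ndufa4 and Ndufa4l2 stand with the complex I accessory genes.

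The core of complex I, the subunits that carry out electron transfer, was the group with the highest median. 5 of its 6 measured genes were higher in CC in both genotypes, with a median log2 fold change of 0.403 in WT and 0.327 in HET. The same count held under every scaling tried, but single calls were lost or reversed with other windows, depths or left-out libraries. Ndufs8, an iron-sulfur subunit (chr19:3908863-3912774), had 44.04, 43.29, 47.6 and 44.33 CPM in the WT CB libraries and 66.98, 64.18, 57.5 and 75.25 in WT CC. In HET the values were 43.73, 41.96, 41.81 and 40.76 in CB and 65.36, 56.33, 70.79 and 63.32 in CC. CC libraries of both genotypes lay above all CB libraries, and the log2 fold changes were 0.56 ± 0.0772 in WT (SE, adjusted p = 6.33e-08) and 0.60 ± 0.0695 in HET (1.75e-09). Its single peak covers the start whose promoter is printed above and is shared with the window of Aldh3b1.

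Ndufv2, an iron-sulfur subunit next to the NADH site, had the highest start peak of the core and rose from 73.66 ± 2.29 to 97.98 ± 6.36 CPM in WT (n = 4, log2 0.41 ± 0.0648, adjusted p = 8.54e-07). On the gene span alone, which leaves out its start peak, it was lower in CC in WT (log2 -0.28, adjusted p = 0.0414) and HET (-0.307, 0.00831). Ndufs1, the largest core subunit, rose by 0.40 ± 0.0704 and Ndufs7, which holds the last iron-sulfur cluster before ubiquinone, by 0.51 ± 0.118 (adjusted p = 0.000306). The WT CC libraries of Ndufs7 were spread from 23.85 to 45.15 CPM and overlapped WT CB, which lay between 21.8 and 26.08. Its HET call was lost when thinned (log2 0.298, adjusted p = 0.0765) and without HET CC replicate 3 (0.254, 0.0602). Ndufv1, which binds NADH, was the exception, with 36.68 ± 2.87 CPM in WT CB and 38.28 ± 2.59 in WT CC (log2 0.06 ± 0.0983, adjusted p = 0.60).

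Accessory subunits of complex I, which surround the core, went both ways: in WT 10 of 31 were higher and 8 lower, with a median of 0.03 that turned to -0.037 with TMM from peaks near starts, and in HET 8 and 8, with a median of -0.028. Ndufa5 (chr6:24518662-24527690), of the matrix arm, had 37.81, 41.5, 39.78 and 43.14 CPM in WT CB and 64.48, 58.88, 56.65 and 66.22 in WT CC. HET libraries had 38.94, 41.05, 41.17 and 39.46 CPM in CB and 57.62, 57.92, 58.52 and 50.91 in CC. The groups did not overlap in either genotype, and the log2 fold change was 0.60 ± 0.0749 in WT (adjusted p = 6.28e-09) and 0.49 ± 0.0676 in HET (8.69e-08). Ndufa4, since found to be a subunit of complex IV, rose by 0.56 ± 0.0708 in WT, Ndufb4 by 0.55 ± 0.0888, Ndufb10 by 0.48 ± 0.133 and Ndufb5 by 0.48 ± 0.0699. With the window cut to the gene span, which leaves out the peaks at their starts, Ndufa4 turned to -0.225 (adjusted p = 0.222) and Ndufb4 stood at 0.001 (0.997) in WT. The Ndufb10 libraries of WT CC (16.19 to 30.29 CPM) overlapped those of WT CB (14.78 to 18.85). Ndufa4 and its relative Ndufa4l2 were counted with these 31 genes by symbol, and not with complex IV.

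Falls among the accessory genes were led by Ndufa4l2, the hypoxia-induced relative of Ndufa4, and by Ndufab1, the mitochondrial acyl carrier protein. Ndufab1 (chr7:122086815-122101848), with 6 peaks, had 94.56, 92.45, 93.88 and 93.56 CPM in WT CB and 57.25, 58.59, 60.6 and 67.31 in WT CC. The CB libraries stood close together and far above all CC libraries, with a log2 fold change of -0.62 ± 0.077 (adjusted p = 6.82e-09). Its peak at the start did not carry this fall, with log2 0.05 ± 0.0915 in WT (adjusted p = 0.652). The peak inside the gene with the highest level, 14454 bp from the start, fell by 1.14 ± 0.129. Another peak of Ndufab1, 843 bp from the start, was among the largest falls at single peaks in WT. With peaks near the start alone, the gene was at -0.19 (adjusted p = 0.06). Ndufb8 fell by 0.53 ± 0.11 in WT, Ndufb9 by 0.46 and Ndufb7 by 0.45, all of the membrane arm.

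Assembly factors of complex I mostly did not pass the test. In WT 1 of 8 was higher and 2 lower, and in HET 1 and 3. Ndufaf4 was the one that rose, from 32.28 ± 1.52 to 44.5 ± 5.55 CPM in WT (log2 0.46 ± 0.0899) and from 32.29 ± 1.39 to 44.2 ± 4.67 in HET (0.45 ± 0.0795). Ndufaf1, with the lowest start peak of the 8, fell by 0.41 ± 0.135 in WT. Thinned to the depth of the smallest library it was at -0.297 (adjusted p = 0.152).

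**Figure D3:**
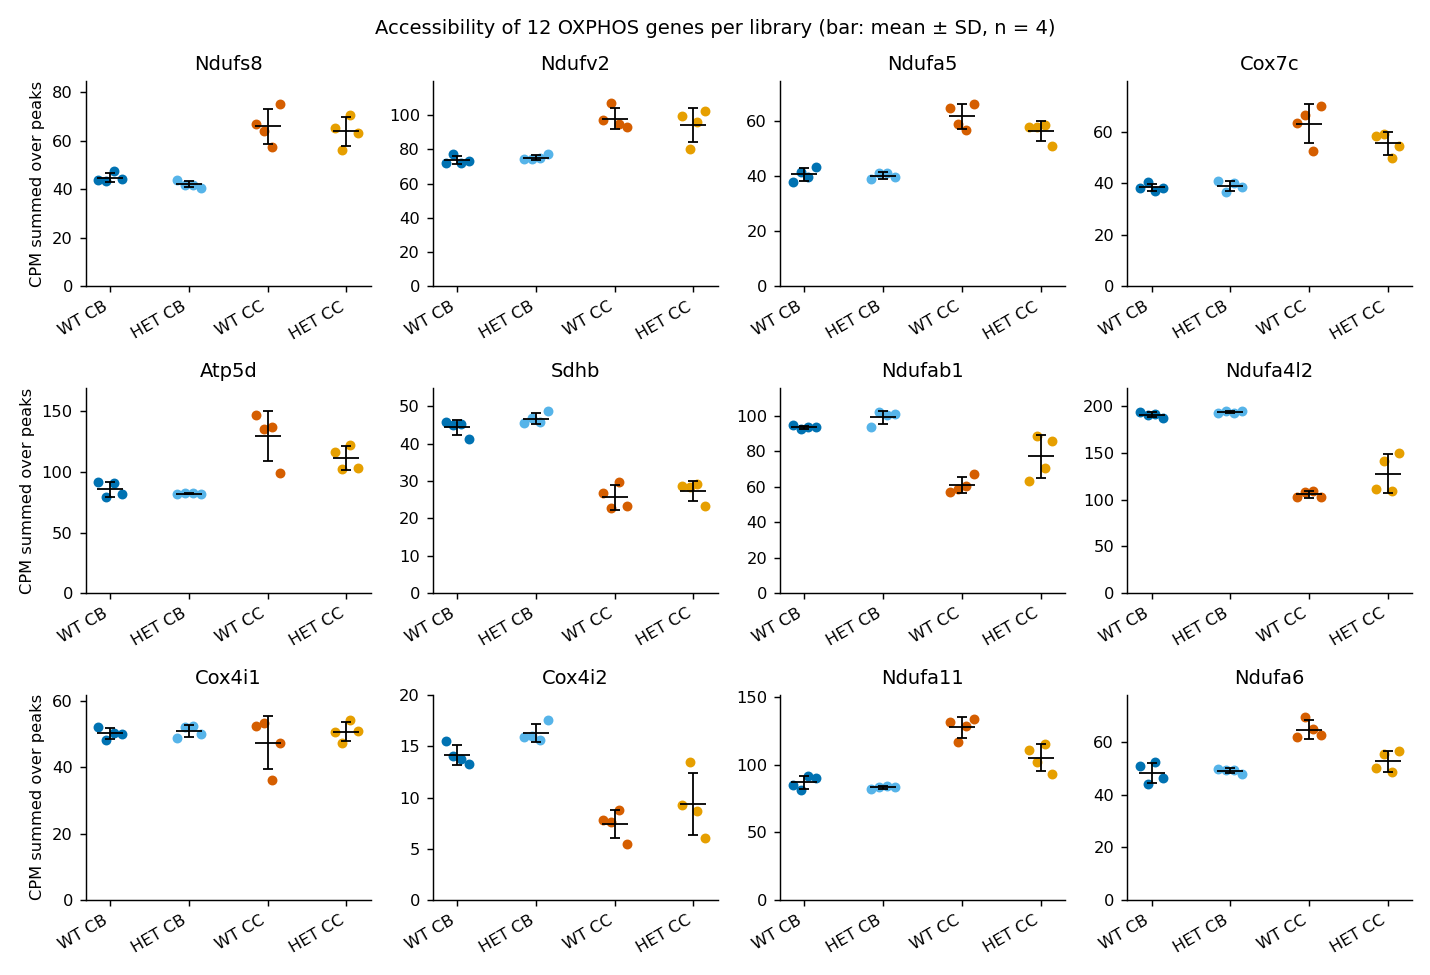
Accessibility of 12 oxidative phosphorylation genes in each library (points, CPM summed over the peaks of the gene) with the mean ± SD of the 4 libraries (bars) in WT CB, HET CB, WT CC and HET CC. Ndufs8 and Cox7c rise in CC in both genotypes, Sdhb falls, Cox4i1 overlaps between groups, and Ndufa4l2 splits in HET CC into 2 libraries at 109.1 and 110.9 CPM and 2 at 141.3 and 149.8.

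Complex II, succinate dehydrogenase, links the chain to the citric acid cycle, and 3 of its 4 genes fell in both genotypes under every scaling tried. Sdhb (chr4:140961271-140979198), the iron-sulfur subunit, had 45.79, 45.11, 45.34 and 41.33 CPM in WT CB and 26.68, 22.67, 29.88 and 23.26 in WT CC. HET libraries had 45.5, 46.78, 45.74 and 48.64 CPM in CB and 28.55, 28.37, 29.26 and 23.28 in CC. All CC libraries lay below all CB libraries, and the log2 fold changes were -0.79 ± 0.0937 in WT (adjusted p = 2.15e-09) and -0.77 ± 0.0796 in HET (9.52e-11). The largest fall was at a peak inside the gene, 1595 bp from the start (chr4:140962616-140963116), which went from 21.67 ± 0.947 to 6.67 ± 0.957 CPM in WT. No peak of Sdhb covered the start whose promoter is printed above.

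Sdhc and Sdhd, the membrane anchors that hold ubiquinone, fell by 0.34 ± 0.0931 (adjusted p = 0.00189) and 0.39 ± 0.089 (0.000205) in WT, and by 0.25 and 0.35 in HET. At Sdhd the peak covering the start, shared with Timm8b, fell by 0.23 ± 0.0921 and a peak 2207 bp from it by 1.70 ± 0.25. Sdha, the flavoprotein that oxidises succinate, was the one that did not pass the test. It had 71.88 ± 3.07 CPM in WT CB and 69.77 ± 8.35 in WT CC (adjusted p = 0.585), and the libraries overlapped. On the gene span alone, without its start peak, Sdha was lower in CC in WT (log2 -0.491, adjusted p = 0.00104).

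In complex III, 4 of 7 genes were higher and 1 lower in WT, and 2 and 1 in HET. The WT count depended on the scaling: with TMM from peaks near starts it was 2 and 2. Uqcrq, a small subunit, rose from 62.42 ± 0.924 to 81.5 ± 6.69 CPM in WT (log2 0.39 ± 0.0669, adjusted p = 4.4e-06) and by 0.30 in HET. Uqcrh, the hinge protein at the cytochrome c site, rose by 0.22 ± 0.0559 in WT and 0.14 ± 0.0506 in HET. Uqcr11 fell by 0.28 ± 0.113 in WT (adjusted p = 0.0287), a call lost when thinned (adjusted p = 0.0697) and without any of 4 single libraries, WT CB replicates 1 and 3 (adjusted p = 0.0577 and 0.0716) and WT CC replicates 3 and 4 (0.0756 and 0.135).

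Complex IV held both the highest and the lowest log2 fold change of the 86 genes in WT. Of its 14 measured genes 4 were higher and 3 lower in WT (3 and 4 with TMM from peaks near starts, where the median of 0.038 turned to -0.029), and 2 and 2 in HET. Cox7c (chr13:86044798-86046795), a small membrane subunit, had 38.23, 40.31, 36.86 and 38.28 CPM in WT CB and 63.36, 66.54, 52.43 and 70.05 in WT CC. The log2 fold change was 0.72 ± 0.0797 (adjusted p = 5.17e-10), and in HET it was 0.51 ± 0.0723. Cox4i2 (chr2:152753916-152765039) had 15.48, 14.09, 13.74 and 13.25 CPM in WT CB and 7.78, 7.66, 8.74 and 5.47 in WT CC. Its groups did not overlap in either genotype, and it fell by 0.93 ± 0.18 in WT (adjusted p = 2.4e-05) and 0.77 ± 0.141 in HET.

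Isoforms with restricted tissue use and their ubiquitous counterparts were listed apart, and the difference between the lists was not tested. All 4 measured members of the 8 restricted isoforms were called lower in WT (median -0.887), where 25.7% of all genes were: Cox4i2, Cox6b2 of testis (log2 -0.92 ± 0.193), Cox7a1 of heart and skeletal muscle (-0.30 ± 0.126) and Ndufa4l2 (-0.85 ± 0.0662). In HET 3 of the 4 fell, and Cox7a1 was at -0.20 (adjusted p = 0.0988). The WT call of Cox7a1 was lost without WT CB replicate 1 or 3 (adjusted p = 0.0607 and 0.0641) or WT CC replicate 2 or 4 (0.114 and 0.213), and when thinned (0.222). The 7 ubiquitous isoforms had a median of 0.052 in WT, and Ndufa4 was called higher. Cox4i1 had 50.16 ± 1.58 CPM in WT CB and 47.31 ± 7.94 in WT CC (log2 -0.09 ± 0.0829, adjusted p = 0.373), and Cox6b1 25.59 ± 1.22 and 26.74 ± 5.18 (0.06 ± 0.11, adjusted p = 0.656). With the window cut to the gene span, Cox6b1 was lower in CC in HET (log2 -0.958, adjusted p = 3.23e-05), while the peak covering its start was at 0.119. Cox6a1, Cox7a2, Cox7b and Cox8a lay between -0.127 and 0.12. Other settings called 3 of the 7 lower in WT: Cox7a2 with TMM from peaks near starts (-0.185, adjusted p = 0.0272), with TMM of the gene sums (-0.19, 0.0205) and by DESeq2 (-0.182, 0.0144), Cox4i1 by DESeq2 (-0.151, 0.0496) and Cox8a with TMM of the gene sums (-0.2, 0.0494).

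Complex V, the ATP synthase, had 3 genes higher and 3 lower of 16 in WT (2 and 6 with TMM from peaks near starts) and 3 and 7 in HET (3 and 5 with the replicate number as a block). Atp5d (chr10:80138698-80145828), of the central stalk, had 91.31, 79.46, 90.5 and 81.39 CPM in WT CB and 146.5, 135.1, 137.3 and 99.06 in WT CC. Replicate 4 of WT CC was the lowest of its group and still above all CB libraries, and the log2 fold change was 0.59 ± 0.0737 in WT (adjusted p = 7.5e-09) and 0.43 ± 0.0687 in HET. Atp5j, of the peripheral stalk, had the highest start peak of all 76, and all 3 of its peaks also lie in the window of Gabpa, the gene of the GABPA factor, so both genes carry the same values. It rose from 123.4 ± 5.42 to 172.6 ± 12.5 CPM in WT (log2 0.49 ± 0.0509, adjusted p = 1.3e-10) and from 128 ± 0.654 to 161.5 ± 5.6 in HET (0.34 ± 0.0474). Atp5md, a small membrane subunit, fell by 0.44 ± 0.0859 in WT and 0.51 ± 0.0741 in HET.

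Single peaks showed that the direction went with the distance from the gene start. Among the 186 peaks 37 were higher and 57 lower in WT, where 57.9% of all 82188 peaks were called, 30.2% higher and 27.7% lower. In HET 35 were higher and 62 lower, where 58.8% of all peaks were called, 30.8% higher and 28.1% lower. Of the 76 peaks that covered a start, 26 were higher and 13 lower in WT, with a median log2 fold change of 0.099 (all genes 42.7% higher, 17.1% lower, median 0.147). Of the 63 peaks with their middle over 250 and up to 1000 bp from the start, 8 were higher and 25 lower, with a median of -0.225 (all genes 22.0%, 31.7%, -0.127). Of the 47 peaks further away, 3 were higher and 19 lower, with a median of -0.36 (all genes 26.6%, 31.6%, -0.105). In HET 25 of the peaks that covered a start were higher and 14 lower (all genes 36.2% and 22.0%), with a median of 0.041. Beside the start 6 were higher and 29 lower (19.4% and 36.7%, median -0.27), and further away 4 and 19 (28.2% and 30.8%, median -0.233).

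Summed over the 76 peaks that covered a start, the level was 2669 ± 30.4 CPM in WT CB, 2715 ± 38.7 in HET CB, 3012 ± 41.3 in WT CC and 2927 ± 45.2 in HET CC. Over the 47 peaks further away it was 527.4 ± 2.84, 547.1 ± 8.38, 371.4 ± 17.9 and 419.4 ± 23.5 CPM. Both CC groups thus lay above both CB groups at the starts and below them at the 47 peaks. Over the 63 peaks beside the start WT libraries overlapped, with 1011 to 1073 CPM in CB and 946.2 to 1054 in CC, while HET libraries had 1052 to 1090 in CB and 952.3 to 993 in CC. Within genes, 50 of the 86 had a peak covering the start and at least 1 other, and the start peak had a higher log2 fold change than the median of the others in 47 of them (94.0%) in WT and 46 (92.0%) in HET, against 71.9% and 67.5% of 8350 genes of all kinds. Across the whole table, peaks near starts held 45.1% to 46.5% of counts in CB libraries and 48.0% to 49.9% in CC libraries, and the part of this shift in the result was not tested.

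**Figure D4:**
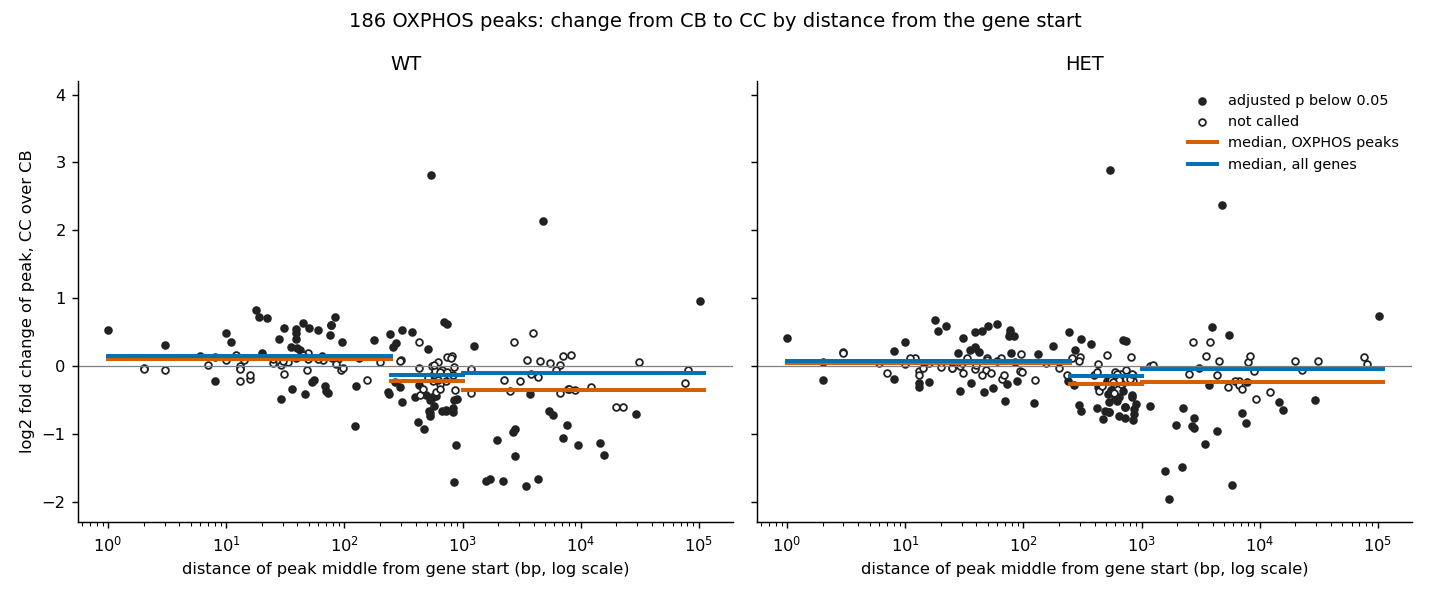
Log2 fold change from CB to CC of each of the 186 peaks (vertical axis) against the distance of its middle from the gene start (bp, log axis, 0 drawn at 1), in WT (left) and HET (right). Orange lines are medians of these peaks and blue lines those of all genes in the same distance bands: the orange line falls from 0.099 to -0.225 and -0.36 in WT.

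Rises at single peaks included peaks of low level. A peak inside Ndufa10, 4799 bp from the start, went from 0.864 ± 0.267 to 3.78 ± 1.09 CPM (2.13 ± 0.381), and one inside Ndufaf2, 101570 bp from the start, from 2.96 ± 0.608 to 5.8 ± 2.45 (log2 0.96). The largest fall in WT was at a peak inside Ndufb1 (chr12:101972026-101972526), 3462 bp from the start. It had 18.97, 21.14, 22.07 and 21.04 CPM in WT CB and 6.95, 7.95, 4.51 and 5.2 in WT CC (log2 -1.76 ± 0.163, adjusted p = 8.93e-14). In HET the largest fall was at a peak inside Cox7a2l, 1693 bp from the start, from 9.6 ± 0.535 to 2.42 ± 0.777 CPM (-1.96 ± 0.193), while the peak covering the start of Cox7a2l rose by 0.41 ± 0.0792.

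Promoter motifs gave small differences in the change at the start. The 18 genes with an NRF1 match and a peak covering their start had a median log2 fold change of 0.168 in WT, against 0.082 for the 47 without, and 8 of the 18 were higher and 1 lower. Over all 1044 genes with the match and such a peak, 48.0% were higher and 11.7% lower, and the medians over all genes were 0.186 with the match and 0.144 without. For the ETS motif the order was the other way, 0.058 in the 17 genes with it and 0.118 in the 48 without (all genes 0.093 and 0.166). The 7 genes with a YY1 match had a median of 0.058, against 0.113 without (all genes 0.144 and 0.151). In HET this order turned, with 0.054 in the 7 genes and 0.041 without. These are descriptions, and no difference between them was tested.

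Between HET and WT in CB, no gene of the 86 was called by edgeR's quasi-likelihood test, against 0.215% of all genes. At an unadjusted p under 0.05 there were 4 (9.49% of all genes), and DESeq2 called 0 (1.23% of all genes). The log2 values ran from -0.158 to 0.204, with a median of 0.029 (all genes 0.017). The smallest p-values belonged to Atp5k, Atp5e and Atp5mpl, small subunits of the ATP synthase. Atp5k had 24.95 ± 0.498 CPM in WT CB and 27.99 ± 1.38 in HET CB (log2 0.17 ± 0.0685, adjusted p = 0.416). Atp5e had 68.53 ± 1.81 and 75.09 ± 2.27 (0.13 ± 0.0543, adjusted p = 0.419, and 0.0338 with the CB libraries fitted alone), and Atp5mpl 20.71 ± 1.02 and 23.46 ± 1.01 (0.18 ± 0.0741, adjusted p = 0.421). At 9 of the 86 genes the HET CB libraries lay wholly on 1 side of the WT CB libraries, which was so at 11.9% of all genes.

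In CC, 5 of the 86 genes were called between HET and WT, 2 higher and 3 lower, which is 5.81% against 6.8% of all genes (2.17% higher, 4.63% lower). With TMM from peaks near starts it was 3 higher and 1 lower, against 2.92% and 1.87%. Ndufa11, of the membrane arm of complex I, had 131.2, 116.3, 128.2 and 133.8 CPM in WT CC and 111.1, 101.7, 115.3 and 92.66 in HET CC, with no overlap. It was lower by a log2 value of -0.28 ± 0.0664 (adjusted p = 0.00889). Both peaks that carry this lie in the window of the neighbouring gene Vmac, and the larger, 695 bp from the Ndufa11 start (chr17:56716817-56717317), had 83.68 ± 6.55 CPM in WT CC and 67.15 ± 8.21 in HET CC (-0.33 ± 0.0775, adjusted p = 0.017). On its remaining unshared peak, at 1.83 ± 0.737 CPM in WT CC and 1.86 ± 1.05 in HET CC, Ndufa11 had a log2 value of 0.077. Without HET CC replicate 4 the adjusted p of the gene was 0.0572.

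Ndufa6, a subunit that binds the acyl carrier protein, had 61.97, 69.77, 65.11 and 62.66 CPM in WT CC and 50.05, 55.54, 48.89 and 56.81 in HET CC. The groups did not overlap, and the log2 value was -0.29 ± 0.0824 (adjusted p = 0.0269). Atp5h, of the peripheral stalk, whose promoter is printed above, had 33.91, 36.51, 32.13 and 36.67 CPM in WT CC and 27.66 ± 2.65 in HET CC, again without overlap (-0.33 ± 0.102, adjusted p = 0.0453). Ndufa6 missed the threshold with library totals (adjusted p = 0.0644), with TMM from peaks near starts (0.0657) and without WT CC replicate 2 (0.102), 3 (0.0523) or HET CC replicate 1 (0.0503) or 3 (0.0551). With TMM of the gene sums its adjusted p was 0.0538, with only the CC groups 0.108, thinned 0.106 and on the gene span alone 0.284. Atp5h missed it under the same 2 scalings (0.084 and 0.0914), with the replicate number as a block (0.0546), and without WT CC replicate 1 (0.066), 2 (0.113) or 4 (0.103) or HET CC replicate 2 (0.0901), 3 (0.0964) or 4 (0.0708). With TMM of the gene sums its adjusted p was 0.0765, with only the CC groups 0.191, thinned 0.0937 and with peaks near the start alone 0.0553.

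Ndufa4l2 and Ndufab1 were higher in HET CC than in WT CC, and the same 2 HET CC libraries were highest at both genes. Ndufa4l2 (chr10:127509274-127517154) had 102.5, 108, 109.4 and 102.6 CPM in WT CC and 110.9, 141.3, 109.1 and 149.8 in HET CC, where replicates 2 and 4 stood above the rest. The log2 value was 0.28 ± 0.0726 (adjusted p = 0.015), and 0.23 without HET CC replicate 2 (0.0867) or 0.20 without replicate 4 (0.106). Ndufab1 had 57.25, 58.59, 60.6 and 67.31 CPM in WT CC and 63.29, 88.79, 70.6 and 85.98 in HET CC, with the same 2 libraries highest (0.35 ± 0.0853, adjusted p = 0.0112). HET CC replicate 3 also lay above all WT CC libraries at Ndufab1. Ndufab1 was at 0.27 without HET CC replicate 2 (0.076) and 0.30 without replicate 4 (0.0631). With peaks near the start alone Ndufab1 was at 0.10 (adjusted p = 0.603) and Ndufa4l2 at 0.31 (0.0792). With only the CC groups fitted the adjusted p was 0.0552 for Ndufab1 and 0.0612 for Ndufa4l2.

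The same libraries differed at marker genes. Germinal center markers summed to 1049, 1132, 1052 and 1163 CPM in HET CC replicates 1 to 4, against 928.5 to 1011 in WT CC. T cell markers summed to 616.4, 543.7, 609.2 and 516.5 CPM in the same order, against 632.9 to 710.6 in WT CC. Between HET and WT in CC, 5 of 12 germinal center markers were higher and 6 of 15 T cell markers lower. The part of this in the 2 genes was not tested. Both genes lay lower in CC than in CB in each genotype: Ndufa4l2 was at 190.8 ± 2.47 CPM in WT CB and 193.8 ± 1.21 in HET CB.

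Of single peaks 3 of the 186 were called between HET and WT in CC, 2 higher and 1 lower, against 2.06% of all peaks (1.08% higher, 0.979% lower), and none of the 76 that covered a start. They were the Ndufa11 peak above, a peak inside Ndufab1, 14454 bp from the start, with 14.2 ± 2.42 CPM in WT CC and 22.93 ± 5.87 in HET CC (log2 0.71 ± 0.148, adjusted p = 0.00681), and a peak inside Ndufa4l2, 2782 bp from the start, with 20.52 ± 2.73 and 27.39 ± 4.5 (0.43 ± 0.117, adjusted p = 0.038). In CB no peak of the 186 was called by edgeR, against 0.129% of all peaks. There were 7 at an unadjusted p under 0.05 (7.9% of all peaks), and DESeq2 called 1 (0.787%).

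**Figure D5:**
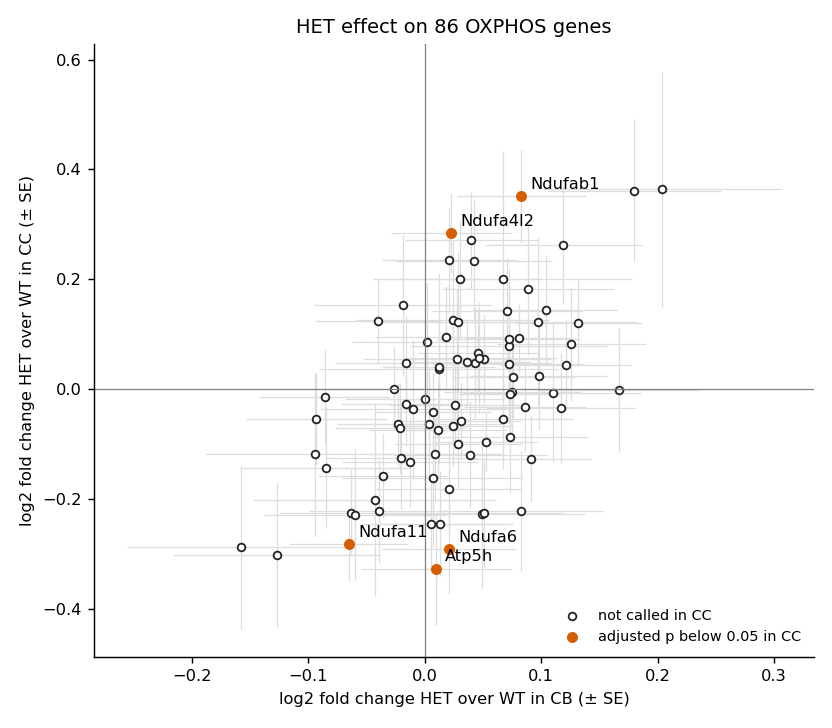
Log2 fold change of HET over WT in CC (vertical axis) against that in CB (horizontal axis) for the 86 genes, with SE bars of the fit. The 5 genes called in CC are named and filled in orange, and in CB they lie near 0, between -0.065 and 0.083.

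The difference of the HET effect between CC and CB, tested as an interaction, passed at none of the 86 genes, against 0.257% of all genes. By edgeR 12 had an unadjusted p under 0.05, against 13.9% of all genes, and DESeq2 also called 0, against 2.1%. The smallest p-values were those of Ndufa6 (log2 -0.31 ± 0.101, adjusted p = 0.143), Ndufa4l2 (0.26 ± 0.0892, adjusted p = 0.164) and Atp5h (-0.34 ± 0.121, adjusted p = 0.186). Without HET CC replicate 1 or 3, Ndufa4l2 passed (adjusted p = 0.045 and 0.0411). Among the 186 peaks none passed, against 0.159% of all peaks, with 25 at an unadjusted p under 0.05 (11.4% of all peaks) and 2 called by DESeq2 (1.72%).

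Other genes of mitochondrial energy metabolism also went both ways from CB to CC in WT. Over all genes 37.1% were higher and 25.7% lower in WT, which is the background for each list that follows. Of 42 measured assembly factors and carriers outside the symbol rule, 18 were higher and 10 lower (median 0.059). The complex I factor Dmac1 rose by 1.25 ± 0.0716, the complex III factor Lyrm7 by 0.78 ± 0.0621 and the complex II factor Sdhaf1 by 0.64 ± 0.0651. The largest falls of the list, named after their values were seen, were those of the complex IV factor Surf1 (-0.73 ± 0.108), the ATP synthase factor Atpaf1 (-0.58 ± 0.124), Taco1, which activates translation of a complex IV subunit (-0.57 ± 0.115), and the copper chaperone Cox17 (-0.52 ± 0.0872). Of 18 regulators of mitochondrial biogenesis, 8 were higher and 2 lower, among them the coactivator Ppargc1a (0.56 ± 0.0867) and the mitochondrial transcription factor Tfb2m (0.39 ± 0.0765). Of 20 genes of the citric acid cycle and pyruvate oxidation, 8 were higher and 4 lower. Suclg2, a subunit of succinyl-CoA ligase, fell by 0.95 ± 0.0675, while the pyruvate carrier gene Mpc2 rose by 0.52 ± 0.0436 and Pdhb of pyruvate dehydrogenase by 0.49 ± 0.051.

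Of 19 glycolysis genes, 9 were higher and 5 lower in WT, and the lactate transporters Slc16a3 and Slc16a1 fell by 0.97 ± 0.0941 and 0.58 ± 0.0587 and the phosphofructokinase Pfkp by 0.41 ± 0.0506. The largest rises, named after their values were seen, were those of the lactate dehydrogenase Ldhb, from a mean of 1.24 to 6.9 CPM (2.49 ± 0.312), and the hexokinase Hk3, from 6.84 to 11.3 CPM (0.73 ± 0.176). Mitochondrial ribosomal protein genes, taken by their Mrpl or Mrps symbols alone and 73 with a peak, had 22 higher and 19 lower, with a median of 0.012. Mrpl3 fell by 0.95 ± 0.113 while Mrps14 rose by 0.61 ± 0.0749 and Mrpl18 by 0.57 ± 0.0527. In HET from CB to CC the counts were 11 and 11 for assembly, 9 and 4 for regulators, 7 and 6 for the citric acid cycle, 5 and 7 for glycolysis and 20 and 25 for mitochondrial ribosomes. Of all genes 33.1% were higher and 28.6% lower in this comparison. In HET against WT CC, 2 of the 42 assembly genes were lower, Lyrm7 (-0.23 ± 0.0669, adjusted p = 0.0279) and Sdhaf1 (-0.23 ± 0.0703, adjusted p = 0.0408), and none was higher. Lower calls made up 4.63% of all genes in this comparison. Of the glycolysis genes Slc16a3 (0.45 ± 0.108) and Pfkl (0.27 ± 0.0825) were higher and Aldoa (-0.26 ± 0.0702) lower. Of the genes with an Mrpl or Mrps symbol, Mrpl3 (0.67 ± 0.128) and Mrps36 (0.39 ± 0.0979) were higher and Mrpl48 (-0.30 ± 0.0628) lower. In the citric acid cycle list Suclg2 was higher (0.23 ± 0.0728), and no regulator was called. None of the 5 lists had a call between HET and WT in CB.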

How the data were processed

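The deposited table holds raw read counts per peak for all 16 libraries, made by the authors. Per the submitters' processing notes FastQC, BWA, deepTools, R 4.2.1 and mm10 were used, while the peak caller and read counter are not given in the labels. Peaks were assigned to RefSeq gene windows (span ± 1 kb) and counts were summed per gene. Starts came from the RefSeq promoter table for 78 members and from either gene end for 18. edgeR 4.0.16 (R 4.3.3) fitted all 16 libraries with 1 coefficient per group by robust quasi-likelihood on all genes and on all peaks, with TMM factors of the peak table, filterByExpr (0 features removed) and Benjamini-Hochberg adjustment over all features. Scripts were tested on simulated data. Alternatives were other scalings, filters, windows, a replicate block, thinning, left-out libraries and DESeq2 1.42.0. Named members were the 10 largest called rises and falls in WT, the 5 each way in HET, called or smallest-p genes between genotypes, the highest and lowest start peak per complex, the isoform lists, and the 3 largest peaks each way. The 3 genes with the smallest p were named in other lists. Counts of PCR-amplified reads are not independent molecules. The values of 1 member, which stays in the counts, are not reported here. Members and lists were chosen with earlier results of these data known.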

Additional observations from a re-analysis of the deposited data

Results flagged for a closer look

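In 12 of 164 groups of 4 libraries (41 named genes), 1 library stood apart from the other 3 by a gap, as a share of the group's range, over Dixon's critical value, and chance alone marks about 1 in 20 groups. For Sdhb, replicate 4 of WT CB had 41.33 CPM against 45.11 to 45.79 in the others, and replicate 4 of HET CC 23.28 against 28.37 to 29.26. Ndufb7 had 42.22 CPM in WT CB replicate 1 (others 44.61 to 44.93), 46.52 in HET CB replicate 4 (44.02 to 44.23) and 33.64 in HET CC replicate 2 (39.27 to 39.89). In HET CC, Ndufa5 had 50.91 CPM in replicate 4 (others 57.62 to 58.52), Ndufa4 67.25 in replicate 1 (58.15 to 59.5) and Cox7a1 14.28 in replicate 1 (18.47 to 19.09). In HET CB, Atp5j had 127.0 CPM in replicate 2 (128.3 to 128.4) and Atp5e 78.49 in replicate 3 (73.76 to 74.06). In WT CB replicate 1, Ndufb11 had 22.93 CPM (18.98 to 19.63) and Cox6b1 27.4 (24.74 to 25.13).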

How the results depend on the processing

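Left-out libraries gave 40 to 48 called genes from CB to CC in WT, 38 to 44 in HET, 0 to 0 between genotypes in CB, 1 to 5 in CC (1 without HET CC replicate 4, 2 without replicate 2) and 0 to 2 for the interaction (2 without HET CC replicate 1, 1 without replicate 3). For peaks the ranges were 83 to 94, 90 to 96, 0 to 0, 0 to 8 and 0 to 1. Without peaks shared between genes, an alternative chosen after seeing the data, 31 genes were called in WT. Thinned to the smallest library, 29 genes and 59 peaks were called in HET, and 3 genes between genotypes in CC. With only the groups compared, 1 gene and 1 peak were called between genotypes in CB and 1 gene and 1 peak in CC. In CC the gene span alone gave 2 genes, peaks near starts alone 2, DESeq2 8 genes and 10 peaks, and a mean of at least 10 CPM 6 peaks. In CB DESeq2 called 1 peak. The interaction had 1 called peak with TMM from peaks near starts and 2 with DESeq2. The split from CB to CC in WT was 23 higher and 25 lower with library totals, 26 and 20 with RLE factors, 22 and 30 with TMM of the gene sums (chosen after seeing the data), and 23 and 30 with DESeq2.

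Signs reversed where the window was the gene span only: Ndufa4 was at -0.225 in WT and -0.183 in HET, Ndufa6 at -0.264 and -0.734, Ndufv2 at -0.28 and -0.307, and Ndufb4 at -0.211 in HET. Ndufa11 was at -0.053 in WT, -0.219 in HET and 0.077 between genotypes in CC with the span only, and at the same values without shared peaks. Deviations of same-numbered CB and CC libraries of 1 genotype correlated weakly, at 0.029 to 0.074. Most CB libraries, but not all, correlated best with the CC library of their own number. Across genotypes same-numbered libraries were at -0.12 to 0.009. The labels do not say that equal numbers are 1 mouse, so no pairing was used in the main fit, and whether they are was not settled. With the replicate number as a block, 46 genes were called in WT, 43 in HET, 0 in CB, 4 in CC and 0 for the interaction, with 92, 94 and 3 peaks in WT, HET and CC. CC libraries are shallower than CB libraries, which limits the precision of every comparison in CC.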
